A study of Haemulon flavolineatum and Haemulon macrostomum and Haemulon carbonarium with 36 samples.

Results

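Liver transcripts of Haemulon macrostomum, the Spanish grunt, were described from the count columns of the 11 fish of this species, out of 36 fish in the series. The fish were wild and untreated, were speared in the Bocas del Toro Archipelago, Panama, over a pair of days between morning and early afternoon, and had no developed gonads, so that their sex was not determined. The species used only for comparison were H. carbonarium (Caesar grunt, 8 fish) and H. flavolineatum (French grunt, 17 fish), taken wild and untreated over the same days and hours. The age and the hour of capture of each fish were not given in the sources used here. According to the study, most H. macrostomum came from outer reefs, under stronger currents and waves than the other species. In the species contrasts, reef exposure therefore cannot be told apart from species. The study found raised vitellogenin and zona pellucida transcripts in part of the H. flavolineatum and left those fish out of its repeated species contrasts. All 17 were kept here, so contrasts with that species include them. RNA of each liver was counted by TagSeq, which sequences a single tag near the 3′ end of each mRNA, so that counts did not scale with transcript length. Tags were assigned to isogroups, the clusters of contigs that stand for genes in a transcriptome assembled from the liver of 1 H. macrostomum. That reference favours reads of this species, and a difference in level from the other species cannot be told apart from a difference in how well their reads matched it.

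The liver makes most of the proteins of blood plasma, among them lipid carriers, protease inhibitors, complement and clotting factors, and it stores and releases sugar and fat, binds iron and haem, and clears foreign compounds. A few secreted proteins usually take a large part of its messenger RNA. Hepatocytes also follow the daily clock and change with feeding, infection and, in female fish, with the making of egg yolk. In many bony fishes, exocrine pancreatic tissue lies in or beside the liver.

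The 11 libraries held 1149810 to 3252882 counts, with fish 6 the deepest, and 21924 to 32035 isogroups with at least 1 count. In all, 49125 of the 58532 isogroups of the table were detected in at least 1 H. macrostomum. Levels are given as CPM, the counts of an isogroup per 1000000 counts of the library after TMM scaling of its total,, and errors are SD over the 11 fish unless stated. Of the isogroups, 4575 had a mean of 10 or more CPM, and these took 94.1% of all counts. A protein name was held for 874 of them, 753 of which came from the study's table of isogroups that differed between the species, so that named isogroups are not an even sample of the liver. Isogroups that share a protein name can share reads, and their separate levels are uncertain.

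Transcripts were concentrated in few isogroups. The 10 most abundant isogroups of each fish took between 31.2% and 44.6% of its counts (mean 36.8% ± 3.87, SD, n = 11), and the 100 most abundant took 58.9% to 71.4%. Between 17 and 51 isogroups were enough to hold 50% of the counts of a fish, with the fewest in fish 2 and the most in fish 6. The most abundant isogroup of a fish took 5.20% of the counts in fish 8 (95% Clopper-Pearson interval 5.17% to 5.24%) and 19.2% in fish 2, where the interval was 19.1% to 19.3%. Such intervals cover counting error only. In 10 of the fish this leader was the unnamed isogroup645, and in fish 8 it was isogroup5304, an alpha-1-antitrypsin.

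Concentration was set against the other species by fish. The share of the 10 most abundant isogroups averaged 36.8% ± 3.87 in H. macrostomum and 41.4% ± 5.69 in H. carbonarium (SD, n = 11 and n = 8), a difference of -4.66 percentage points with p = 0.049 in a two-sided exact permutation test and p = 0.098 after adjustment over 6 comparisons. Against H. flavolineatum, with 43.6% ± 10.6 (SD, n = 17), the difference was -6.86 points with p = 0.0406 in a two-sided permutation test and 0.098 after adjustment. With egg protein isogroups left out, that difference was -5.83 points (two-sided permutation p = 0.0475, adjusted 0.0976). The number of isogroups that held 50% of the counts averaged 32.9 ± 9.67 in H. macrostomum and 22.6 ± 9.59 in H. carbonarium (exact permutation p = 0.0353, adjusted 0.098), and 24.1 ± 14.3 in H. flavolineatum (permutation p = 0.0849, adjusted 0.127). No difference passed the adjusted threshold of 0.05. The first comparison depended on H. carbonarium fish 2, whose own make-up stood apart: without it the difference was -6.25 points and the adjusted exact permutation p was 0.00905. That fish was left out for its make-up after the data were seen, so this p is a description only. Without H. macrostomum fish 6 instead, the difference was -4.24 points (adjusted exact permutation p = 0.155).

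The most abundant isogroups were mostly those of plasma proteins, where a name was held. Among the 20 isogroups of highest mean level, 10 had a name: alpha-1-antitrypsin, apolipoprotein A-I, a TBT binding protein, betaine homocysteine methyltransferase, RNAase, complement C3, hemopexin, prostaglandin D synthase, alpha-2-HS-glycoprotein and hepcidin. The other 10 had none, among them the leader. Most of the named ones are known as secreted proteins, while betaine homocysteine methyltransferase is a liver enzyme that remakes methionine. All 20 varied among the fish beyond counting error, but so did 90.4% of all isogroups of 10 or more CPM and all but 2 of the 698 with 100 or more.

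Isogroup645 had 44746 CPM in fish 8, a median of 121340 and 241640 in fish 2, and took 13.3% ± 4.54 of the counts. Isogroup22469, the next in order, was unnamed as well but nearly even, with 37205 to 56799 CPM and a median of 44948. Alpha-1-antitrypsin (isogroup5304), an inhibitor of neutrophil elastase in plasma, had 17415 CPM in fish 10, a median of 37851 and 47531 in fish 8. Isogroup645 thus had the widest range of these and isogroup22469 the narrowest.

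Apolipoprotein A-I (isogroup2202), the main protein of high-density lipoprotein, had 20826 CPM in fish 1, a median of 30280 and 41435 in fish 11. Complement C3 (isogroup6800), on which the complement pathways converge, lay between 7754 and 14550 CPM with a median of 10139. Hemopexin (isogroup1477), which binds free haem, was between 6908 and 10953 CPM in most fish and reached 12311 in fish 2 and 17389 in fish 10. All 3 were abundant in every liver, and their biological coefficients of variation (CV, the SD left after counting variance was taken off, over the mean) were 0.188, 0.184 and 0.276.

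**Figure D1:**
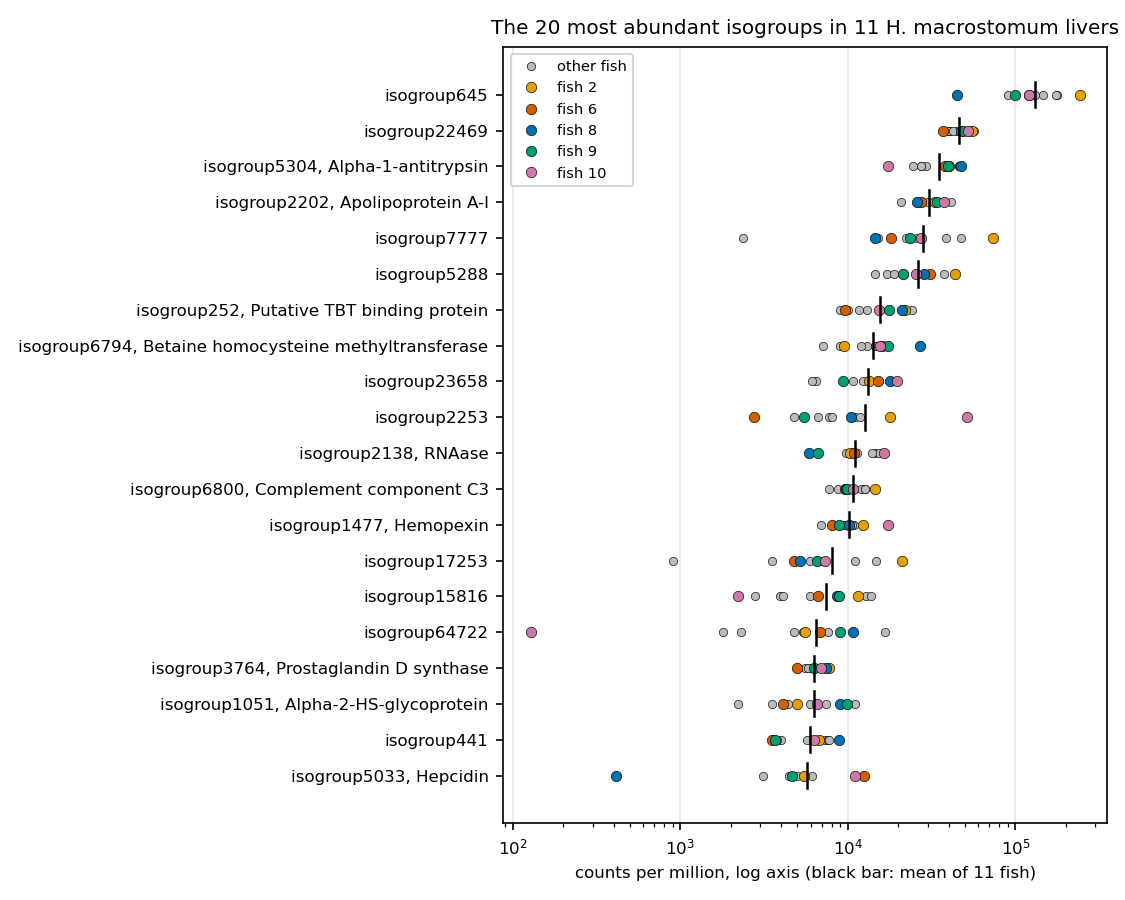
Level of the 20 most abundant isogroups in each of the 11 H. macrostomum livers, in CPM on a log axis, with a black bar at the mean and fish 2, 6, 8, 9 and 10 in colour. Isogroup22469 and prostaglandin D synthase were tightly grouped, while isogroup64722 fell to 127.7 CPM in fish 10 and hepcidin to 413 CPM in fish 8.

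Several abundant isogroups were set apart by a single fish. Hepcidin (isogroup5033), the hormone that lowers iron export and, in fish, also an antimicrobial peptide, had 413 CPM in fish 8, between 3107 and 6105 CPM in 8 of the others, and 11046 and 12562 CPM in fish 10 and fish 6. Isogroup64722 had 127.7 CPM in fish 10, and 1805 to 16679 CPM in the others. Isogroup2253 had 51559 CPM in fish 10, a median of 8049 and 2737 in fish 6. Betaine homocysteine methyltransferase (isogroup6794) had 27037 CPM in fish 8, a median of 14542 and 7057 in fish 11. Fish 8 was lowest for the first and highest for the last, and fish 10 was at an end of the range for the middle pair.

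The same isogroups were compared with the other species in an edgeR quasi-likelihood fit of all 36 fish (8598 isogroups tested, Benjamini-Hochberg adjusted p under 0.01). Of all tested isogroups, 7.41% were called higher and 6.08% lower in H. macrostomum than in H. carbonarium, and 14.4% higher and 11.6% lower than in H. flavolineatum. Of the 20 most abundant, 2 were called higher than in H. carbonarium and 18 did not pass the test, and 10 were called higher than in H. flavolineatum while the other 10 did not pass. P-values of the species comparisons set the difference between species against the spread between wild fish. Each fish had a single library, so this spread includes that of library preparation. Ranking on level in H. macrostomum selects isogroups that are high in it, so these counts are a description of the members.

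Hepcidin averaged 5724 ± 3388 CPM in H. macrostomum, against 724 ± 462 CPM in H. carbonarium, a log2 difference of 2.98 ± 0.60 (SE, edgeR adjusted p = 0.000236), and against 1153 ± 1287 CPM in H. flavolineatum, a log2 difference of 2.32 ± 0.44 (adjusted p = 5.34e-05). Fish 8, at 413 CPM, was the only fish inside the H. carbonarium range of 241 to 1750 CPM. The H. flavolineatum range, 137 to 5356 CPM, held fish 8 and also fish 1, 4, 5, 7 and 9. Prostaglandin D synthase (isogroup3764), a lipocalin that in mammals makes prostaglandin D, averaged 6276 ± 917 CPM in H. macrostomum, against 3298 ± 927 CPM in H. carbonarium (log2 difference 0.93 ± 0.25, edgeR adjusted p = 0.00479) and 1972 ± 831 CPM in H. flavolineatum (1.67 ± 0.20, adjusted p = 7.05e-09). Its lowest H. macrostomum value, 4969 CPM, was above the highest H. flavolineatum value of 3583 CPM. Of the 20 leaders of H. macrostomum, 15 were also among the 20 of highest mean in H. carbonarium and 12 among those in H. flavolineatum.

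Digestive enzymes of the exocrine pancreas were present in every library and for the most part varied together. The summed level of the 12 isogroups with such names was 377 CPM in fish 5, a median of 2979 and 8426 in fish 2. Carboxypeptidase B (isogroup1643), which trims basic residues from peptides, had 194 CPM in fish 5, a median of 1503 and 4356 in fish 2. Chymotrypsin elastase family member 2A (isogroup4491) had 131 CPM in fish 5, a median of 1092 and 3235 in fish 2. Alpha-amylase (isogroup41616) had 7.39 CPM in fish 5, a median of 147 and 557 in fish 7. Fish 5 was the lowest and fish 2 or fish 7 the highest for each of these.

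Of the 12, 6 had a mean of 10 or more CPM, and their levels had a mean pairwise r of 0.72 on the log2 scale. All 6 varied beyond counting error, beside 90.4% of all isogroups of 10 or more CPM. In bulk tissue, fewer cells of a type and less RNA per cell cannot be told apart. The sum was below that of H. carbonarium, whose fish all had more, at 9142 to 57793 CPM, and it overlapped that of H. flavolineatum, with 1832 to 16045 CPM. A trypsinogen, given below, averaged 7407 CPM in H. carbonarium, where the median sum was 15182 CPM. The sums were not compared without it. In the edgeR fit, carboxypeptidase B (-1.67 ± 0.42, adjusted p = 0.00301), the elastase (-1.79 ± 0.38, adjusted p = 0.000544) and alpha-amylase (-2.26 ± 0.44, adjusted p = 0.000147) were lower on the log2 scale than in H. carbonarium, and of these alpha-amylase was lower than in H. flavolineatum (-1.56 ± 0.38, adjusted p = 0.00136). A trypsinogen (isogroup62223) had 2.69 to 70.2 CPM in H. macrostomum, 2699 to 20125 CPM in H. carbonarium and 308 to 4921 CPM in H. flavolineatum (log2 differences -8.97 ± 0.60 and -7.30 ± 0.55, edgeR adjusted p = 1.44e-14 and 7.94e-14). Among H. macrostomum it was lowest in fish 5 and highest in fish 2, but it did not follow the sum elsewhere. It had 4.10 CPM in fish 7, with a sum of 7350 CPM, and 13.5 CPM in fish 8, with a sum of 1626.5 CPM.

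Abundant isogroups without a name followed these enzymes. Isogroup7777, the fifth most abundant of the liver libraries, had 2351 CPM in fish 5, a median of 23561 and 73069 in fish 2, and over the 11 fish its log2 level had a Pearson r of 0.99 and a Spearman rho of 0.96 with the summed enzymes (0.97 without the 2 fish farthest from the median of the sum). For isogroup17253 the values were 0.98, 0.94 and 0.92, and for isogroup57567 0.93, 0.90 and 0.88. These are descriptions from 653 relations between the 30 most abundant isogroups and the list sums, chosen for their size, and they carry no test. Isogroup7777 and isogroup17253 also moved with each other, with r of 0.99 among H. macrostomum, 0.99 among H. carbonarium and 0.98 among H. flavolineatum, and a ratio between 2.61 and 4.29 in every H. macrostomum. Isogroup57567 did not go with them in H. carbonarium, where its r was -0.05 with isogroup7777 and -0.09 with isogroup17253, against 0.65 and 0.64 in H. flavolineatum.

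**Figure D2:**
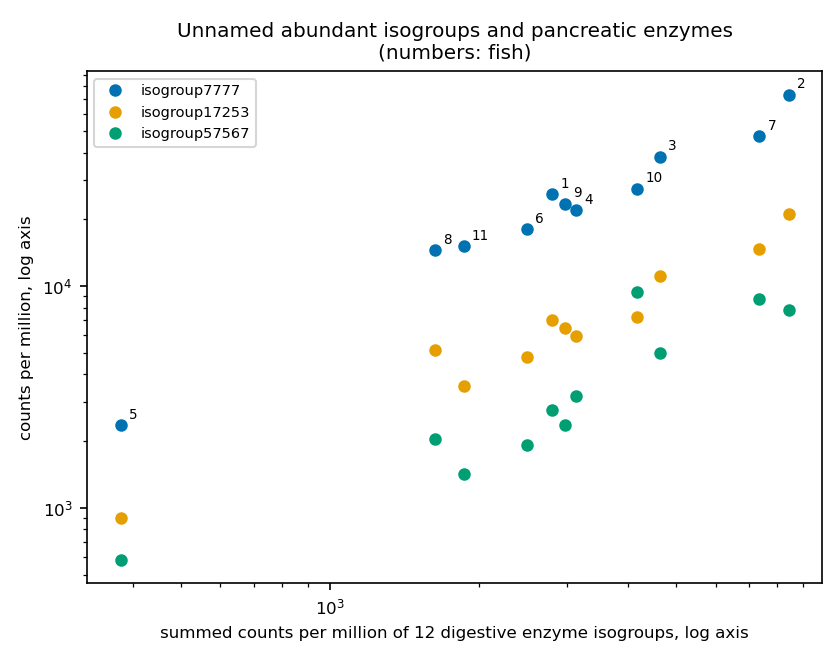
Levels of 3 unnamed abundant isogroups in each of the 11 H. macrostomum livers against the summed level of 12 digestive enzyme isogroups, in CPM on log axes, with the fish number beside the points of isogroup7777. Fish 5 was lowest for all and fish 2 and fish 7 had the highest enzyme sums, 8426 and 7350 CPM.

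A further set of abundant isogroups varied with alpha-1-antitrypsin. Isogroup15816 had r of 0.90 with alpha-1-antitrypsin among the 11 fish, 0.95 among H. carbonarium and 0.88 among H. flavolineatum, and apolipoprotein C-I (isogroup46198), a small lipoprotein component, had 0.87, 0.93 and 0.68. Isogroup64722 and apolipoprotein C-I had r of 0.96 among the 11 fish, 0.84 among H. carbonarium and 0.58 among H. flavolineatum. Fish 10 was the lowest of the 11 for all of these: alpha-1-antitrypsin 17415 CPM, isogroup15816 2220 CPM, isogroup64722 127.7 CPM and apolipoprotein C-I 1837 CPM. RNAase (isogroup2138), a secreted ribonuclease, ran the other way, with an r of -0.84 to alpha-1-antitrypsin (Spearman -0.89) and its highest level, 16510 CPM, in fish 10. That r was weaker in the other species, at -0.35 among H. carbonarium and -0.59 among H. flavolineatum. These pairs were picked from the extremes of 435 pairs among the 30 most abundant isogroups and carry no test. Not every strong pair recurred in the other species. Isogroup2253 and hemopexin had r of 0.92 among the 11 fish, 0.19 among H. carbonarium and 0.24 among H. flavolineatum.

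Most isogroups with a mean of 10 or more CPM differed among the 11 fish by more than counting error. A chi-square test of homogeneity called 4135 of the 4575 isogroups with a mean of 10 or more CPM (90.4%, Benjamini-Hochberg adjusted p under 0.01), and 2 of the 698 with 100 or more CPM were not called. The median biological CV was 0.369, with quartiles of 0.261 and 0.552, and 334 isogroups had a CV above 1. Without fish 6 the median was 0.335 and 170 isogroups were above 1. The median was 0.396 among the 8 H. carbonarium and 0.374 among the 17 H. flavolineatum, and over isogroups with 10 or more CPM in both species, biological CVs in H. macrostomum had a Spearman rho of 0.48 with those in H. carbonarium (3723 isogroups) and 0.44 with those in H. flavolineatum (3656), across isogroups that are not independent.

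Fish 6 stood apart from the other 10. It had the highest level of 895 of the 4575 isogroups and was above the next fish by more than 2-fold (of CPM plus 1) in 293, while fish 10, the next in this count, was so in 61. Isogroups of 10 or more CPM numbered 4464 over the other 10 fish, so some of the 4575 entered through fish 6. Its log2 profile had correlations of 0.66 to 0.83 with the other fish, and the other fish had medians of 0.81 to 0.87 with the rest. The first principal component, with 27.8% of the variance, set fish 6 against fish 10 and fish 2. Its library was the deepest of the 11, its TMM factor was near 1, and its 10 most abundant isogroups took 32.5% of counts, inside the range of the others. The part that these features have in the result was not tested.

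**Figure D3:**
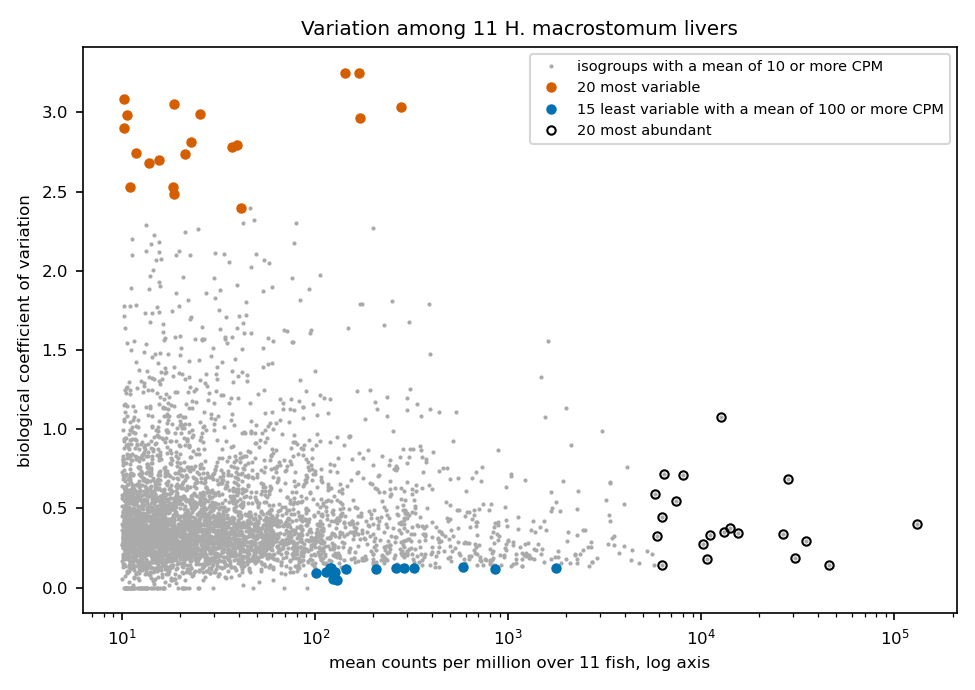
Biological coefficient of variation among the 11 H. macrostomum livers against mean CPM (log axis) for 4575 isogroups, with the 20 most variable, the 15 least variable at 100 or more CPM and the 20 most abundant marked. The most variable lay at means of 10.2 to 277 CPM, and isogroup2253 was the abundant isogroup of highest variation, with a CV of 1.08.

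Each of the 20 most variable isogroups had a single fish well above the others, which CVs of their size over 11 fish require. In all 20 the highest fish was more than 2-fold above the next, and this follows from the ranking. Fish 6 was the highest in 18 of them, fish 9 in 1 and fish 5 in 1. The mean of 10 or more CPM included fish 6, and most of the 18 reached it only through that fish. Their number is thus in part set by the filter. Their CVs lay between 2.40 and 3.25, and without the highest fish of each between 0.457 (isogroup5251) and 2.93 (isogroup14499). Isogroup31559 reached 1824 CPM in fish 6, followed by 17.9 CPM for fish 9, 11.5 CPM for fish 7 and at most 1.12 CPM for the other 8. Isogroup13020 had 2808 CPM in fish 6 and 2.70 to 56.7 CPM in the others, and isogroup47787 had 1694 CPM in fish 6 and 1.65 to 45.9 CPM in the others. Fish 9 was the second highest in 14 of the 20.

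Only 3 of the 20 had a name. Heat shock protein 70b (isogroup11387), a chaperone made in response to damaged proteins, had 298 counts or 190 CPM in fish 9. It had 18 counts in fish 8 and 9 in fish 6, and fish 5 and fish 11 had 2 each, while the other 6 fish had 0. Its range was 0 to 16.1 CPM in H. carbonarium and 0 to 428 CPM in H. flavolineatum. Cytochrome c (isogroup1017), the electron carrier that also triggers apoptosis, had 336 CPM in fish 6, 51 in fish 9 and 4.03 to 16.2 in the others. Peroxisome proliferator-activated receptor gamma coactivator-related protein 1 (isogroup30265), a regulator of mitochondrial genes, had 109 CPM in fish 6 and 0 to 4.71 CPM in the others.

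Among the 15 named isogroups of largest CV, fish 6 was the highest in 13, the exceptions being heat shock protein 70b and brain-type fatty acid binding protein. The filter on their means included fish 6 as well. DDX24 (isogroup6052), an RNA helicase of ribosome assembly, had 384 CPM in fish 6, and 4.95 to 31.2 CPM in the others. Guanine nucleotide-binding protein 3 (isogroup500), known as nucleostemin, had 211 CPM in fish 6 and 9.82 to 23.2 CPM in the others. The release factor subunit ERF3B (isogroup3231), which ends translation, had 115 CPM in fish 6 and 4.95 to 19.1 CPM in the others. For these 3, fish 6 lay far above the other 10 fish. Without it the CVs were 0.515, 0.235 and 0.383, beside a median of 0.335 over all isogroups of 10 or more CPM.

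Others varied over several fish. Purine nucleoside phosphorylase (isogroup1521), of the purine salvage pathway, had 35.9 CPM in fish 11, a median of 937 and 8663 in fish 6. Brain-type fatty acid binding protein (isogroup26035), an intracellular lipid carrier, had 1078 CPM in fish 1, while fish 10 had 269, fish 11 had 237 and the others 14 to 97.3. Reticulon (isogroup6499), a protein that shapes the endoplasmic reticulum, had 605 CPM in fish 6, 145 in fish 11 and 7.82 to 72 in the others, and its mean of 92.7 ± 175 CPM was above that of H. carbonarium, 1.85 CPM (log2 difference 5.58 ± 0.78, edgeR adjusted p = 7.78e-07), and that of H. flavolineatum, 3.75 CPM (4.59 ± 0.53, adjusted p = 4.41e-09). All 11 H. macrostomum were above the highest H. carbonarium, at 3.99 CPM, and all but fish 3 and fish 4 were above the highest H. flavolineatum, at 10.8 CPM.

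For isogroup13020, among the most variable, a single fish set the contrast with H. flavolineatum. Isogroup13020 averaged 277 ± 840 CPM in H. macrostomum and 36.4 CPM in H. flavolineatum, and the edgeR log2 difference of 2.98 ± 0.73 (adjusted p = 0.0013) turned to -0.60 ± 0.43 (adjusted p = 0.286) without fish 6. Of the 20 most variable isogroups, 14 did not pass the filter on low counts and were not tested against the other species, and 1 of the remaining 6 was called higher than in H. carbonarium and 3 were called higher than in H. flavolineatum (backgrounds 7.41% and 14.4%). Ranking on the spread within H. macrostomum favours isogroups with a high value in it, so these counts are a description.

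Leaving out fish 6 changed which isogroups ranked as most variable, and 2 of the 20 were kept. This second ranking was chosen for description after fish 6 had been seen to stand apart. An isogroup could leave it because its mean over the 10 fish fell under 10 CPM. Isogroup14499 and isogroup31559 left with CVs of 2.93 and 1.78 over those fish, above the 1.66 of the last of the new 20. For others the CV itself fell, as to 0.457 for isogroup5251. Tribbles homolog 1 (isogroup1608), a pseudokinase that regulates lipid synthesis in mammalian liver, had 85.4 CPM in fish 9, 71.0 in fish 6 and 1.65 to 13.4 in the others. The membrane form of the immunoglobulin mu chain (isogroup7173), a B cell gene, had 200 CPM in fish 5, while fish 6 had 54.4, fish 2 had 47.1 and the others 3.78 to 26.7. The IgM heavy chain in its transmembrane form (isogroup21349) had 102 CPM in fish 5 and 4.32 to 43.1 CPM in the others. Fish 5 was highest for both.

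Choriogenin and vitellogenin transcripts were highest in fish 4. Choriogenin Ha (isogroup3885), an egg envelope protein that the liver makes under estrogen, had 217 CPM in fish 4, 69.8 in fish 7 and 11.2 to 44.1 in the others. Vitellogenin B (isogroup31593), a yolk precursor, had 70.4 CPM in fish 4, 26.3 in fish 7 and 3.36 to 12 in the others. The 12 egg protein isogroups summed to 86.0 CPM in fish 5, a median of 166 and 539 in fish 4, which was inside the range of H. carbonarium, 136 to 1122 CPM, and overlapped that of H. flavolineatum, whose fish had 101 to 265320 CPM with a median of 415 CPM. In the edgeR fit the 8 tested members did not pass the test against H. carbonarium. Against H. flavolineatum the calls are not counted, since members can pass the filter on low counts through the fish of that species in which they are high.

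The least variable isogroups with a mean of 100 or more CPM had biological CVs of 0.0499 to 0.128 over the first 15. Isogroup41717, with 113 to 146 CPM, and isogroup2374, with 104 to 140 CPM, were the 2 of these isogroups whose spread was not shown to exceed counting error (adjusted chi-square p = 0.0711 and 0.159). Both were unnamed. The same 15 isogroups had a median CV of 0.119 in H. macrostomum, where they were chosen, and of 0.223 in H. carbonarium and 0.253 in H. flavolineatum.

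Among the 15 named isogroups of smallest CV were enzymes, membrane components and plasma proteins. Aldose reductase (isogroup1035), which reduces glucose to sorbitol, had 118 to 169 CPM with a median of 148. Phospholipase A1 member A (isogroup1491), a secreted lipase, had 96.7 to 147 CPM with a median of 120. TCTP (isogroup3737), a growth-related protein found in most cells, had 1432 to 2169 CPM with a median of 1727. Antithrombin-III (isogroup1227), the main inhibitor of thrombin, had 233 to 331 CPM with a median of 290. In these the highest fish was at most 1.09 times the next.

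Some isogroups of this steady set differed in level between species. Aldose reductase averaged 144 ± 19.4 CPM in H. macrostomum, against 61.2 CPM in H. carbonarium (log2 difference 1.24 ± 0.19, edgeR adjusted p = 5.67e-06) and 40.2 CPM in H. flavolineatum (1.85 ± 0.15, adjusted p = 1.43e-12), and its lowest H. macrostomum value, 118 CPM, was above the highest of the others, 89.0 and 60.7 CPM. Phospholipase A1 member A averaged 119 ± 17 CPM in H. macrostomum, against 36.2 CPM in H. carbonarium (1.72 ± 0.25, adjusted p = 1.34e-06) and 28.5 CPM in H. flavolineatum (2.08 ± 0.20, adjusted p = 2.95e-11). Of the 15 least variable isogroups, named or not, 3 were higher than in H. carbonarium and the other 12 did not pass the test, and 3 were higher and 1 was lower than in H. flavolineatum. The shares of all tested isogroups were 7.41% higher for the first comparison and 14.4% higher and 11.6% lower for the second. Against H. flavolineatum the counts were close to what those shares give for 15 isogroups. Prostaglandin D synthase, at a CV of 0.146, was the most abundant of the named steady isogroups.

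Isogroups that varied together were grouped by average linkage over the 300 of largest biological CV (0.7 or more mean Pearson r of log2 levels, at least 5 members). Among all 11 fish, 205 of the 300 fell into 10 groups, and fish 6 was the highest fish of groups that held 180 of the 205. The groups were chosen on these fish, so their correlations are descriptions. The largest group had 106 isogroups, and fish 6 was the highest fish in 104 of them. A name was held for 15 of its members, and not all of them are given here. Among them were cytochrome c, DDX24, guanine nucleotide-binding protein 3, H/ACA ribonucleoprotein complex subunit 4 (isogroup4377) and nucleolar protein 5-2 (isogroup842), both of ribosomal RNA modification. Others were initiation factor 3 subunit Jb (isogroup724) and the autophagy receptor sequestosome-1 (isogroup7372).

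The mean pairwise r in this group was 0.80 over the 11 fish, when all 300 had 0.26, and 0.47 without fish 6, when all 300 had 0.10. The same isogroups had a mean r of 0.06 among H. carbonarium, near the 0.04 of all 300 there, and of 0.21 among H. flavolineatum, where all 300 had 0.07. Their median log2 deviation was 3.66 in fish 6, 1.44 in fish 9 and between -0.56 and 0.23 in the others. Fish 9 was thus the second fish of the group.

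**Figure D4:**
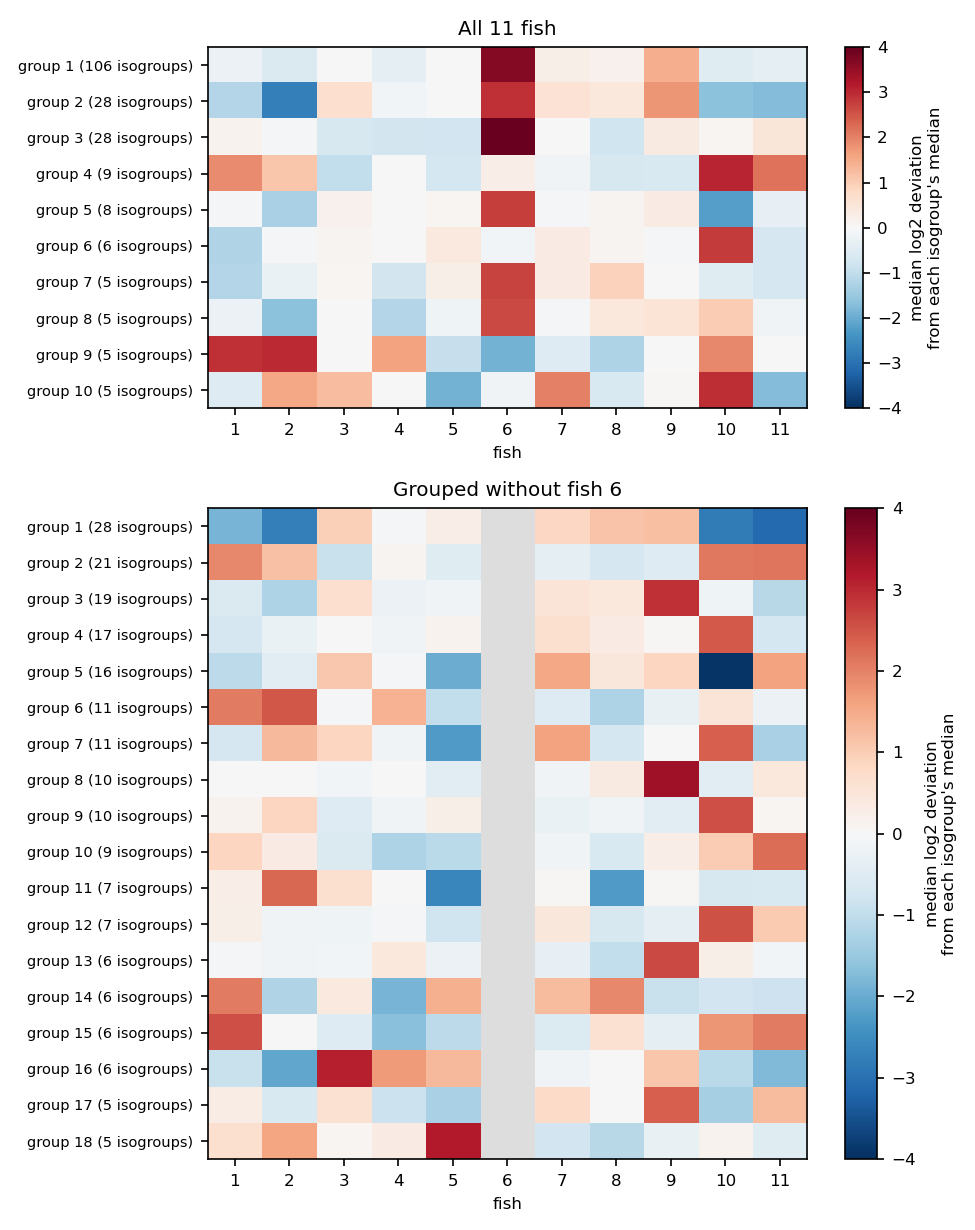
Median log2 deviation of each group of isogroups that varied together from the isogroups' own medians, in each H. macrostomum fish, with groups made from all 11 fish above and from 10 fish without fish 6 (grey) below. Fish 6 led groups that held 180 of 205 isogroups above, and in the lower map the first group was low in fish 1, 2, 10 and 11 and group 5 was low in fish 10.

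The third group, of 28 isogroups, was highest in fish 6, at a median log2 deviation of 3.95, with the other fish between -0.80 and 0.48. Reticulon and a leucine-rich alpha-2-glycoprotein (isogroup593), a plasma protein of the acute phase, were members. The mean r was 0.79 over the 11 fish and 0.34 without fish 6.

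Grouping without fish 6 gave 18 groups with 200 of 300 isogroups. The largest, of 28 isogroups with a mean r of 0.83 and a mean Spearman rho of 0.76, held nocturnin, the only isogroup of the clock list in it. D-box binding protein, the other listed isogroup of 10 or more CPM, was outside the group, and the remaining 4 of the list had means under 10 CPM. Other members were recognised by their names, after the group had been seen, as factors that act in or with the clock. In 20 of the 28, fish 1, 2, 10 and 11 had the 4 lowest levels of the 10, a pattern that 28 of all 300 isogroups had. Named members were nocturnin, CLOCK-interacting pacemaker, nuclear factor interleukin-3-regulated protein (NFIL3), the protein of chromosome 1 open reading frame 51, CCAAT/enhancer binding protein delta2, purine nucleoside phosphorylase, 2 leiomodin-1 isogroups, torsin-3A, solute carrier family 25 member 38 and microfibril-associated glycoprotein 4.

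CLOCK-interacting pacemaker (isogroup31), a repressor of the CLOCK and BMAL1 pair in mammals, had 0 to 2.34 CPM in fish 1, 2, 10 and 11 and 7.69 CPM in fish 6, and 61.6 to 151 CPM in the other 6. The product of chromosome 1 open reading frame 51 (isogroup52), known in mammals as a circadian repressor, had 0 to 8.30 CPM in the same 5 fish and 35.3 to 90.5 CPM in the other 6. D-box binding protein (isogroup366), an output factor of the clock and the most abundant isogroup of the clock list, had 4.61 CPM in fish 11, with 8.30 CPM for fish 6, 10.3 CPM for fish 10, 31.3 CPM for fish 1 and 65.2 CPM for fish 2, and 116 to 194 CPM in the other 6. For each of these 3, the same 5 fish were the lowest and no value of the other 6 overlapped theirs.

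Nocturnin (isogroup9456), a phosphatase of rhythmic expression, followed this pattern except in fish 6. It had 0 counts in fish 11, 1 count each in fish 2 and fish 10 and 5 counts in fish 1, 6.05 to 101 CPM in the other fish and 265 CPM in fish 6. NFIL3 (isogroup4016), a repressor that binds D-box sites, had 1 to 3.84 CPM in fish 1, 2, 10 and 11, 10.8 to 36.3 CPM in the others and 25.8 CPM in fish 6. CCAAT/enhancer binding protein delta2 (isogroup2633), a factor of the acute response and of fat cell formation, had 26.1 to 39.1 CPM in fish 1, 2, 10 and 11, 157 to 411 CPM in the others and 506 CPM in fish 6. Fish 6 was therefore low for CLOCK-interacting pacemaker, D-box binding protein and the circadian repressor, and high for nocturnin and CCAAT/enhancer binding protein delta2. The hour at which each fish was taken was not given in the sources used here, and its part was not tested.

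**Figure D5:**
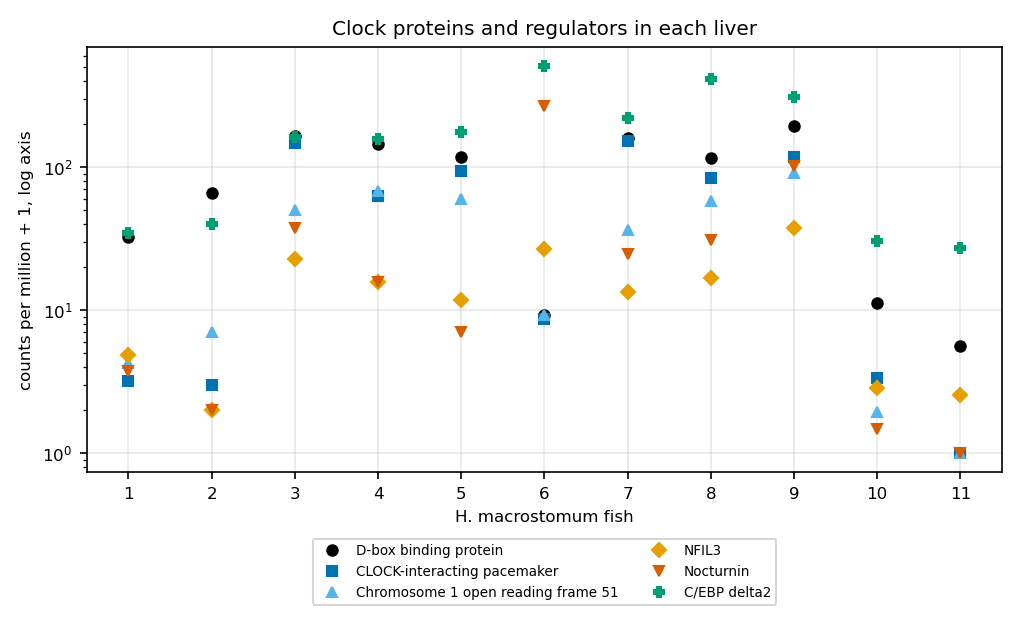
Levels of 6 clock proteins and regulators in each of the 11 H. macrostomum livers, in CPM plus 1 on a log axis. Fish 1, 2, 10 and 11 were low throughout, and fish 6 was low for D-box binding protein, CLOCK-interacting pacemaker and chromosome 1 open reading frame 51 but high for nocturnin and CCAAT/enhancer binding protein delta2.

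The range of these regulators in the other species differed between them. NFIL3 had at most 2.84 CPM in H. carbonarium and 4.42 CPM in H. flavolineatum. D-box binding protein had 1.28 to 153 CPM in H. carbonarium and 1.75 to 52.4 CPM in H. flavolineatum, and its H. macrostomum mean of 91.8 ± 70.2 CPM was above that of H. flavolineatum, 13.3 ± 15 CPM (log2 difference 2.87 ± 0.56, edgeR adjusted p = 6.73e-05), while the difference from H. carbonarium, 42.4 ± 49.3 CPM, did not pass the test (1.11 ± 0.66, adjusted p = 0.241). CLOCK-interacting pacemaker averaged 60.5 ± 60.8 CPM in H. macrostomum, 12.2 ± 23.3 CPM in H. carbonarium (2.30 ± 0.82, edgeR adjusted p = 0.0381) and 2.43 ± 2.18 CPM in H. flavolineatum (4.80 ± 0.73, adjusted p = 1.50e-06). The low H. macrostomum fish overlapped the other species for both. Within the other species the 28 isogroups of the group had a mean r of 0.20 (H. carbonarium) and 0.17 (H. flavolineatum), when all 300 had 0.02 in each.

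A mirror group of 21 isogroups was high in fish 1, 2, 10 and 11. These fish were the 4 highest of the 10 in 17 of the 21, against 26 of all 300. Its single named member was ETHE1 (isogroup2157), a mitochondrial enzyme of sulfide breakdown, with 73.2 to 158 CPM in those 4 fish, 52.3 CPM in fish 6 and 10.2 to 23.6 CPM in the other 6. The mean r of the 21 was 0.79 in H. macrostomum, 0.46 in H. carbonarium and 0.09 in H. flavolineatum. The most abundant isogroup of the lipid list, an elongase of very long chain fatty acids (isogroup628), had its 3 highest levels, 188, 137 and 121 CPM, in fish 1, 10 and 11, and 95.2 CPM in fish 2, with 40.1 to 70.7 CPM in the others. Fructose-bisphosphate aldolase B (isogroup8498), the liver aldolase of sugar metabolism, had its 2 lowest levels, 1011 and 1601 CPM, in fish 1 and fish 11, then 1786 CPM in fish 2, against 2751 to 5059 CPM in the others.

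Several groups had their highest or lowest level in fish 10, and a pair of them is described here. One, of 16 isogroups, was nearly absent from fish 10. F-acid glycoprotein (isogroup79764) had 12.6 CPM in fish 10 and 305 to 2862 CPM in the others. A complement C3 isogroup (isogroup62577) had 0.47 CPM in fish 10 and 14.1 to 166 CPM in the others. The far more abundant C3 isogroup6800 was not low there, with 10661 CPM in fish 10 beside a median of 10139. Fibronectin (isogroup31101), a plasma and matrix protein, had 0 counts in fish 10 and 2.69 to 48.4 CPM in the others. Without fish 6 the mean r of the 16 was 0.81 in H. macrostomum, and among the same isogroups it was 0.89 in H. carbonarium and 0.35 in H. flavolineatum, far above the 0.02 of all 300. A group of 17 was highest in fish 10, with isogroup26965 at 8682 CPM in fish 10 and 545 to 2191 CPM in the others, and diamine acetyltransferase 1 (isogroup7885), the enzyme that starts polyamine breakdown, at 146 CPM in fish 10 and 11.5 to 50.9 CPM in the others. Its mean r was 0.81 in H. macrostomum, 0.72 in H. carbonarium and 0.27 in H. flavolineatum. With fish 10 left out as well, the mean r among H. macrostomum was 0.443 for the group of 17 and 0.645 for that of 16. Further groups highest in fish 10, of 10, 7 and 11 isogroups, had 0.299, 0.491 and 0.784.

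Further groups without fish 6 were smaller. Collectrin (isogroup72166), known in mammalian pancreas and kidney, grouped with a chymotrypsin-like elastase 1 (isogroup7069), a metalloendopeptidase, a phospholipase D1 and isogroup54385, which had 402 CPM in fish 5, 6490 in fish 7 and 10356 in fish 10. Their mean r was 0.84 in H. macrostomum, 0.09 in H. carbonarium and 0.22 in H. flavolineatum. The type II antifreeze proteins (isogroup6186 and isogroup68093), which are C-type lectin relatives in fish, grouped with the water channel AQP12 (isogroup2613), and isogroup6186 had 42.9 to 73.6 CPM in fish 1, 2, 4 and 10 and 4.32 to 15.6 CPM in the others. Tribbles homolog 1 grouped with immediate early response gene 2 protein (isogroup8561), which had 371 CPM in fish 9 and 21.1 to 116 CPM in the others, and the mean r of that group of 19 was 0.76 in H. macrostomum (0.50 without fish 9), 0.34 in H. carbonarium and 0.46 in H. flavolineatum. Heat shock protein 70b and cytochrome c shared a group that was high in fish 9, with a mean r of 0.80 that was 0.21 without that fish.

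A few isogroups of 10 or more CPM were nearly absent from some fish and well counted in others. With a rule chosen after the data were seen, 0 or 1 count in at least 3 fish and 20 or more counts in at least 3, 19 isogroups qualified, of which nocturnin, solute carrier family 25 member 38, torsin-3A, XK-related protein and a leiomodin-1 had a name. The rule leaves the level of the remaining fish free, and levels could be graded. Solute carrier family 25 member 38 had 0 or 1 count in fish 2, 10 and 11 and 11 to 92 counts in the others. Isogroup23035 had 206, 162 and 102 CPM in fish 1, 8 and 5 and 0 in fish 4, 6 and 11. Isogroup4219 had 41.3, 52.8 and 44.4 CPM in fish 3, 4 and 5 and 0 in fish 1, 2, 7, 10 and 11. Serum lectin isoform 3 (isogroup2344), a sugar-binding plasma protein outside this rule, had 2.56 CPM in fish 11 and 82.9 to 661 CPM in the other 10, and its mean of 334 ± 203 CPM was above 2.57 CPM in H. carbonarium (log2 difference 6.87 ± 0.67, edgeR adjusted p = 2.47e-10) and 2.25 CPM in H. flavolineatum (7.25 ± 0.49, adjusted p = 4.54e-15). Only fish 11 lay within the range of the other species, which had at most 7.40 and 7.89 CPM.

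The remaining liver functions were described by lists of protein names. Apolipoproteins summed to 27124 to 49432 CPM and took 3.82% of counts, and plasma protease inhibitors summed to 28800 to 63463 CPM and took 4.75%. Complement isogroups, 65 in the table, summed to 14096 to 25013 CPM, and 24 of the 25 with 10 or more CPM varied beyond counting error, near the background of 90.4%. In the edgeR fit, 9 of the 35 tested complement isogroups were higher and 5 were lower than in H. carbonarium, and 14 were higher and 9 were lower than in H. flavolineatum, beside backgrounds of 7.41%, 6.08%, 14.4% and 11.6% in the same order. Only 25 of these isogroups had 10 or more CPM in H. macrostomum, and members that pass the filter through the species in which they are high add to such counts.

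Subunits encoded by mitochondrial DNA were lowest in fish 8. ATP synthase subunit a (isogroup4021) had 515 CPM in fish 8, a median of 1386.5 and 2566 in fish 1, and cytochrome c oxidase subunit 3 (isogroup74190) had 364 CPM in fish 8, a median of 917 and 1534 in fish 9. The 11 such isogroups summed to 1212 CPM in fish 8, a median of 3317 and 4679 in fish 11.

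Enzymes that oxidize and conjugate foreign compounds were lowest in fish 6. Cytochrome P450 isogroups summed to 1598.5 CPM in fish 6, a median of 2404 and 2778 in fish 1, and conjugation enzymes summed to 2045 CPM in fish 6, a median of 2923 and 3583 in fish 11. Alpha-class glutathione S-transferase (isogroup3035), which joins glutathione to reactive compounds, had 720 to 1164 CPM in fish 1, 2, 10 and 11 and 215 to 373 CPM in the other 7. In the edgeR fit, 9 of the 17 tested P450 isogroups were higher than in H. carbonarium and the other 8 did not pass the test, and 11 were higher and 2 were lower than in H. flavolineatum. The backgrounds were 7.41% higher in the first comparison and 14.4% higher and 11.6% lower in the second, and the same limit of the filter holds.

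Of the markers of other cells that could be summed, the digestive enzymes described above had the highest sum, with a median of 2979 CPM beside 2404 CPM for the cytochrome P450 isogroups. The 33 lymphocyte and antigen presentation isogroups summed to 314 to 572 CPM and the 4 muscle isogroups to 19.5 to 57.1 CPM. No isogroup carried a red blood cell name among the names held here, so red blood cell transcripts could not be summed. The study lists a hemoglobin complex term among those enriched in its contrasts with H. macrostomum. Plasma protein names of the hepatocyte were abundant in every library.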

How the data were processed

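Liver RNA of 36 wild fish was measured by TagSeq, and the 11 Haemulon macrostomum were described. The authors removed duplicate reads, mapped tags with Bowtie2 to the de novo H. macrostomum liver transcriptome and deposited whole-number counts per isogroup, with no normalization. Protein names were taken only from the annotation tables held here, and isogroups without one are called unnamed. The members and lists were chosen with earlier results of these data known.

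Levels are CPM after TMM scaling over all fish (edgeR 4.0.16, R 4.3.3). Biological CV was the square root of the variance less the mean counting variance, over the mean, for isogroups with a mean of 10 or more CPM (least variable: 100 or more). Spread beyond counting error was tested by chi-square over the 11 fish. Species were compared by edgeR's quasi-likelihood test over 36 fish with filterByExpr and Benjamini-Hochberg adjustment (p under 0.01), and make-up by permutation (Python 3.11.15, scipy 1.17.1, exact or 100000 resamples, adjusted over 6). Groups used log2(CPM + 1) of the 300 most variable isogroups. H. macrostomum libraries held 1149810 to 3252882 counts, so that in data simulated for the 11 fish a CV of 0.1 was recovered in 12% and a CV of 0.4 in 88% of isogroups.

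Isogroups named were taken from the 20 most abundant, the 20 most and 15 least variable, the 15 most and 15 least variable with a name, named members of groups, and the 2 most abundant of each list. Not all of these are given in the text. Others, among them those of the ranking without fish 6, the all-or-none rule, the egg proteins, serum lectin and further digestive enzymes, were chosen after their values were seen. Alternatives were other scalings (total counts, median of ratios), DESeq2 1.42.0, other filters, thresholds and measures of spread, a replicate block and leaving out single fish.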

Additional observations from a re-analysis of the deposited data

Results flagged for a closer look

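In H. carbonarium, used here only for comparison, fish 2 lay far from the other 7 fish in 2 measures of make-up. Its most abundant isogroup took 8.686% of its counts, and 44 isogroups were needed to hold 50% of them. H. macrostomum had 5.20% to 19.2% for the first measure and 17 to 51 isogroups for the second, and with 11 fish it was not screened in this way. Chance alone sets a fish apart by this measure in about 1 in 20 groups.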

How the results depend on the processing

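At an adjusted p under 0.01, 1160 isogroups differed from H. carbonarium and 2233 from H. flavolineatum. DESeq2 gave 2262 and 4437, and no filter on low counts gave 2513 and 5526, with the share higher in H. macrostomum than in H. flavolineatum at 67.3% and not 55.4%. Fitting only the 2 species compared gave 795 (486 higher, 309 lower, and not 637 and 523) and 1731. Without fish 6, 557 isogroups were higher and 578 lower than in H. carbonarium, so that the larger share turned from higher to lower. An adjusted p under 0.05 gave 1933 against H. carbonarium. Fish numbers did not pair the species (correlations of same-numbered fish -0.13 to 0.38 and -0.17 to 0.09), and a replicate block gave 914 and 1639. The log2 difference of isogroup13020 from H. flavolineatum was -0.59 with DESeq2 and -0.60 without fish 6. Spread beyond counting error was called in 10079 of 18916 isogroups (53.3%) at a mean of 1 or more CPM and in 1236 of 1246 (99.2%) at 50 or more. It was called in 3708 to 4138 isogroups of 10 or more CPM when single fish were left out. Of the 20 most variable isogroups, 4 were shared with a ranking by the SD of log2(CPM + 1), 6 with one by the median absolute deviation over the median, and 2 (without fish 6) to 19 when single fish were left out. Of the 15 least variable, 5 were shared with a ranking by tagwise dispersion, 9 with scaling to total counts, and 8 to 12 when single fish were left out. Grouping placed 111 of 150, 435 of 600 and, without single fish, 200 to 233 of 300 isogroups. Without H. carbonarium fish 2 the share of the 10 most abundant isogroups differed by -6.25 points (adjusted exact permutation p = 0.00905, range 0.00905 to 0.164 over the alternatives). The cause of these shifts was not tested. Leaving out fish 6 and H. carbonarium fish 2 was chosen after seeing the data. Isogroups under 10 CPM are limited by depth.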
